A study of Homo sapiens with 12 samples.

Results

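The long noncoding RNAs (lncRNAs) followed here through treatment of myeloma cells with NGI-1 were MALAT1, NEAT1, KCNQ1OT1, NORAD, OIP5-AS1, TUG1 and PVT1. They were taken by symbol from the deposited expression table, as 7 of its 59276 features, and all 7 symbols were found. MM1S is a human multiple myeloma cell line, a tumor of plasma cells, and NGI-1 is a small molecule that inhibits the oligosaccharyltransferase (OST) complex, the enzyme that attaches N-linked glycans to proteins in the endoplasmic reticulum. RNA-seq of total RNA covered 12 libraries, 3 of cells on day 0 and 3 each after 2, 3 and 5 days of NGI-1. The first of these are called untreated, after the paper's usage. The labels name NGI-1 as the treatment on day 0 as well, and do not settle whether the day 0 cells received vehicle. The treated days share the same 3 untreated libraries and there are no untreated cells of a later day, so the effect of NGI-1 and that of time in culture cannot be told apart. MM1S is a single line, and the labels do not say whether the 3 libraries of a day came from separate cultures, so p-values measure the spread between these libraries, which may be technical.

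lncRNAs are transcripts that are not translated into protein, and where they reside in the cell is part of how they work. MALAT1 is held in nuclear speckles, compartments rich in splicing factors, and NEAT1 is the scaffold on which paraspeckles assemble. KCNQ1OT1 stays on chromatin, where it silences neighboring imprinted genes. NORAD is mostly cytoplasmic and binds Pumilio proteins such as PUM2, which repress mRNAs. OIP5-AS1, also known as Cyrano, is mostly cytoplasmic and directs the destruction of the microRNA miR-7. TUG1 and PVT1 are found in both compartments, and PVT1 lies beside the oncogene MYC. Below, MALAT1, NEAT1 and KCNQ1OT1 are called nuclear and NORAD and OIP5-AS1 cytoplasmic on this textbook ground, since no cell fractions were measured.

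The loci are given on GRCh38, the build named in the submitters' processing notes, from GENCODE release 29. MALAT1 (chr11:65497688-65506516, plus strand) and NEAT1 (chr11:65422774-65445540, plus strand) are neighbors with 52147 bases between them. KCNQ1OT1 (chr11:2608328-2699994, minus strand) lies wholly within the protein-coding gene KCNQ1, on the opposite strand. NORAD (chr20:36045622-36050960, minus strand) has 1 annotated transcript of 1 exon. OIP5-AS1 (chr15:41283990-41309737, plus strand) overlaps the gene OIP5 on the opposite strand by 470 bases, and AC087721.2, a feature annotated as protein-coding, spans 25725 of its 25748 bases on the same strand. TUG1 (chr22:30969245-30979395, plus strand) begins 946 bases from MORC2, which runs the other way. Whether the reads were counted by strand is not given in the sources used here, so reads from overlapping opposite strands cannot be told apart.

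MALAT1 and the long NEAT1 transcript lack the usual poly(A) tail, and their stable 3′ ends are triple helices in which 2 U-rich elements clasp an A-rich one. The short NEAT1 transcript is polyadenylated and does not reach this end. These ends are shown because MALAT1 and the long NEAT1 transcript share them, while their values over the days are taken up next. In the sequences, read from GENCODE release 29 transcripts, capitals mark the letters searched for on the sense strand: TTTCTTTT, then TTTTGCTTT within 80 bases, then GCAAAA within 80 bases.
MALAT1: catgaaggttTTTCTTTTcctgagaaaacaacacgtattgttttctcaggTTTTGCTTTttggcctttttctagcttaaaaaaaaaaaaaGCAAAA
NEAT1: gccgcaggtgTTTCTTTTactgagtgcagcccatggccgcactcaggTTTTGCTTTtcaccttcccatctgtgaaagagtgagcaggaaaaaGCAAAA
The MALAT1 stretch is chr11:65506021-65506116 on the plus strand, and the annotated small RNA RF01684, the tRNA-like piece that RNase P cuts free from the MALAT1 precursor, starts at the next base, at chr11:65506117-65506173. The NEAT1 stretch is chr11:65445443-65445540 on the plus strand and ends with the last base of the longest NEAT1 transcript, of 22743 bases. Of 27869 annotated transcripts of at least 3000 bases, 3 held these elements in this order (0.0108%), namely the longest of MALAT1, the longest of NEAT1 and a transcript of the protein-coding gene TMEM248. No transcript of the other 5 lncRNAs held them. The letters searched for are stretches that the MALAT1 and NEAT1 sequences above share, so that these 2 held them was fixed beforehand. Near matches were not counted, which keeps other hits rare.

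NORAD is shown by the elements that Pumilio proteins bind, TGTANATA on the sense strand, of which its 5339-base transcript held 15. Among 3859 annotated transcripts of 5000 to below 6000 bases, 44.6% held at least 1 such element, the median was 0, and 2 held more than NORAD. In 3 places a pair of elements starts 9 bases apart, with the elements in capitals.
NORAD pair 1: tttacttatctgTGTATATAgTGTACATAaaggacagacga
NORAD pair 2: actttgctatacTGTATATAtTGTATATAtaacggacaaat
NORAD pair 3: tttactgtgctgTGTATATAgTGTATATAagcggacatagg
The pairs lie on the minus strand at chr20:36049491-36049531, chr20:36048294-36048334 and chr20:36047658-36047698. The longest transcript of MALAT1 held 0 of these elements, that of NEAT1 6, of KCNQ1OT1 9 in 91667 bases, of OIP5-AS1 1, of TUG1 2 and of PVT1 0.

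OIP5-AS1 is shown by its site for miR-7-5p, with the seed of the microRNA (bases 2 to 8) and the matching bases of the site in capitals.
hsa-miR-7-5p: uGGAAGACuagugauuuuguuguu
OIP5-AS1 site: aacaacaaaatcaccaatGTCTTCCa
The microRNA sequence is from RefSeq on GRCh38.p14, where 1 of its genes places it at chr9:83969811-83969834 on the minus strand. The site lies at chr15:41300574-41300599 on the plus strand. It is 26 bases long, 2 more than the microRNA, and 23 of the 24 microRNA bases pair with it. The longest OIP5-AS1 transcript held 3 matches to the seed alone, GTCTTCC on the sense strand, a match that 50.3% of 1299 annotated transcripts of 8000 to below 10000 bases hold at least once. Mature microRNAs are not among the values used here.

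The deposited values are the log2 of TPM plus 1, where TPM is a share of the transcripts sequenced, corrected for length. TPM keeps no counts, so the counting error behind a value is unknown. TPM values in a library add up to a fixed total, so a value is a share and depends on what the other features took. Features whose symbol begins as a ribosomal protein took 28.1% to 29.2% of TPM in untreated libraries and 47.5% to 49.1% on day 5, and mitochondrially encoded features took 9.33% to 10.7% and 13.4% to 14.7%. The median log2 fold change of the 11939 features that were tested was -0.18 on day 2, -0.73 on day 3 and -0.99 on day 5. Changes are therefore also given after rescaling, by which libraries were set to a common median over abundant features. In bulk RNA, fewer cells holding a transcript and less of it per cell cannot be told apart. All 10 plasma cell markers listed were at 1 TPM or more in every library. Summed B cell, myeloid and stromal markers stayed below 1 TPM in each library, and among 5 T cell markers only CD3E reached 1 TPM in all libraries of a day. CD3E had a mean of 3.00 TPM in untreated cells, 6.33 on day 2, 5.79 on day 3 and 4.01 on day 5, and was called higher on days 2 and 3 (log2 fold change 0.86 and 0.75), and its part in the results was not tested. Of the 10 plasma cell markers, 5 were higher and 1 lower on day 2, beside 8.04% and 23.2% of all features tested. On day 5, 2 were higher and 6 lower, beside 7.73% and 69.8%. After rescaling 4 were higher and 2 lower on day 5, beside 29.1% and 24.6%. Among these markers TNFRSF17 rose by 1.85 and XBP1 fell by 2.09 on day 5.

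MALAT1 rose on day 2 and again on day 3. Its TPM in the untreated replicates was 90.1, 85.5 and 77.4. After 2 days of NGI-1 it was 157, 120.4 and 140.0, after 3 days 411, 382 and 378, and after 5 days 420.4, 447 and 620.4. No treated library overlapped the untreated ones, and every library of a day lay above every library of the day before. On the log2 scale of TPM plus 1 the means were 6.41 ± 0.11, 7.12 ± 0.19, 8.61 ± 0.066 and 8.93 ± 0.30 (SD, n = 3 each). Against untreated cells the log2 fold change was 0.71 on day 2, 2.20 on day 3 and 2.52 on day 5 (standard error 0.13 each), with limma's Benjamini-Hochberg adjusted p of 7.69e-04, 6.74e-09 and 8.41e-10. From day 2 to day 3 alone it rose by 1.49 (adjusted p = 1.82e-06, limma), and from day 3 to day 5 the difference of 0.32 did not pass the test (adjusted p = 0.0826). Without day 5 replicate 3, the highest of its day, that difference was 0.15 and the rise against untreated cells 2.35. Among all features of a library, MALAT1 stood between places 1261 and 1466 by TPM in untreated cells and between 162 and 184 on day 5.

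NEAT1 rose as well, from a lower level. It had a TPM of 15.8, 16.7 and 12.1 in the untreated replicates, 23.8, 20.8 and 24.2 on day 2, 35.2, 39.7 and 31.5 on day 3, and 44.03, 43.3 and 56.6 on day 5. Here too each day lay wholly above the day before. On the log2 scale the means were 3.98 ± 0.23, 4.58 ± 0.11, 5.18 ± 0.16 and 5.60 ± 0.21 (SD, n = 3 each). The log2 fold change against untreated cells was 0.60, 1.21 and 1.63 on the 3 days (standard error 0.14 each; limma's adjusted p = 0.00351, 3.05e-06 and 9.68e-08). The call on day 2 rests on the untreated libraries, since without untreated replicate 3 the log2 fold change was 0.47, under the threshold of 0.5. From day 2 to day 3 NEAT1 rose by 0.61 (adjusted p = 0.00162, limma). From day 3 to day 5 the difference of 0.42 had an adjusted p of 0.0387 in limma and was under that threshold, and without day 3 replicate 2 it was 0.50 and just passed. The table lists NEAT1 as 1 feature, so the short transcript and the long one that builds paraspeckles cannot be told apart.

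KCNQ1OT1, the third nuclear transcript, was close to 0 throughout. Its TPM lay between 0.0221 and 0.0623 in untreated libraries, 0.0150 and 0.0300 on day 2, 0.0262 and 0.0443 on day 3, and 0.0413 and 0.0532 on day 5, with overlap in every comparison. It did not pass the filter on low values and so was not tested with the rest. With no filter its log2 fold changes were -0.025, -0.013 and 0.0052 (limma's adjusted p = 0.356, 0.594 and 0.883). The annotated transcript is 91.7 kb long, so the untreated mean of 0.0432 TPM stands for as many reads as a transcript of 1 kb at 3.96 TPM. Its host gene KCNQ1 had a mean of 0.201 TPM in untreated cells and 0.0416 on day 5, and CDKN1C, a cell cycle inhibitor in the same imprinted domain, 0.117 and 0.290. Neither passed the filter.

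**Figure D1:**
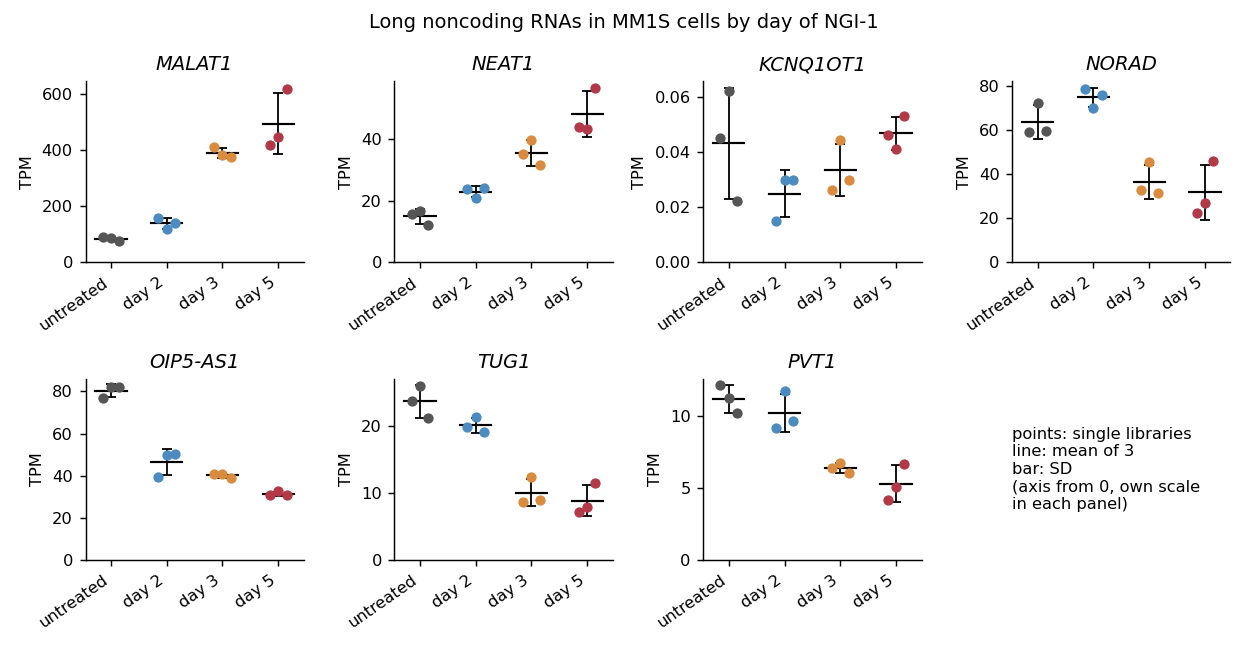
TPM of the 7 lncRNAs (vertical axes from 0, a separate scale in each panel) in the 3 libraries of each day, where points are libraries, lines are means and bars are SD. MALAT1 and NEAT1 stand higher on each later day, KCNQ1OT1 stays below 0.07 TPM, and the other 4 are lower on day 3 and day 5 than in untreated cells.

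NORAD did not pass the test on day 2 and fell by day 3. Its TPM was 59.1, 72.6 and 59.7 in the untreated replicates and 79.0, 70.3 and 75.9 on day 2, which overlap. It was 32.8, 45.6 and 31.5 on day 3 and 22.5, 27.0 and 45.95 on day 5, below every untreated library. The log2 fold change was 0.24 on day 2 (adjusted p = 0.376), -0.80 on day 3 (adjusted p = 0.00307) and -1.04 on day 5 (adjusted p = 3.42e-04), with a standard error of 0.21 each in limma. From day 2 to day 3 it fell by 1.03 (adjusted p = 6.27e-04, limma). Day 5 replicate 3 stood apart from the other day 5 libraries. Without it NORAD fell from day 3 to day 5 by 0.53 and passed the test (limma's adjusted p = 0.0131), and with it the difference was -0.24.

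OIP5-AS1 was lower from day 2 on. Its TPM was 77.0, 82.2 and 82.0 in the untreated replicates, 39.4, 49.9 and 50.4 on day 2, 41.0, 40.6 and 38.9 on day 3, and 30.9, 32.5 and 30.6 on day 5. All treated libraries lay below all untreated ones, and days 2 and 3 overlapped. The log2 fold change was -0.78, -0.98 and -1.33 (standard error 0.098 each; limma's adjusted p = 2.80e-05, 7.30e-07 and 2.00e-08). From day 2 to day 3 it moved by -0.20 (adjusted p = 0.0786, limma), and from day 3 to day 5 by -0.35 (adjusted p = 0.0186), below the threshold on size. The ratio of NORAD to OIP5-AS1 within a library was 0.792 ± 0.0807 in untreated cells, 1.64 ± 0.321 on day 2, 0.911 ± 0.184 on day 3 and 1.02 ± 0.419 on day 5 (SD, n = 3 each), so the order of the pair on day 2 was the reverse of that in untreated cells.

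TUG1 and PVT1, found in both compartments, were not called on day 2 and were lower on day 3 and day 5. TUG1 had a TPM of 23.7, 26.0 and 21.2 in untreated replicates, 19.8, 21.3 and 19.02 on day 2, 8.71, 12.3 and 8.99 on day 3, and 7.22, 7.85 and 11.5 on day 5. Its log2 fold change was -0.22 on day 2 (limma's adjusted p = 0.282), -1.17 on day 3 (1.60e-05) and -1.34 on day 5 (3.01e-06), with a standard error of 0.16. PVT1, which spans 306721 bases with 25 annotated transcripts (chr8:127794533-128101253, plus strand), had a TPM of 12.1, 11.3 and 10.2 untreated, 9.20, 11.7 and 9.69 on day 2, 6.42, 6.77 and 6.07 on day 3, and 4.14, 5.06 and 6.70 on day 5. Its log2 fold change was -0.13 (limma's adjusted p = 0.515), -0.72 (5.54e-04) and -0.97 (3.04e-05), with a standard error of 0.15. Day 2 overlapped the untreated libraries for both genes, and days 3 and 5 lay wholly below them. From day 2 to day 3 TUG1 fell by 0.95 and PVT1 by 0.59 (limma's adjusted p = 1.96e-04 and 0.00291). The fall of PVT1 between these days was 0.49 without day 2 replicate 2 and no longer passed. From day 3 to day 5 neither passed, at -0.17 for TUG1 (limma's adjusted p = 0.446) and -0.26 for PVT1 (0.208).

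Counted over the 6 lncRNAs tested, 2 were higher and 1 lower on day 2, where 8.04% of all features tested were called higher and 23.2% lower. On day 3 and on day 5, 2 were higher and 4 lower. The background was 7.59% higher and 61.5% lower on day 3, and 7.73% higher and 69.8% lower on day 5. From day 2 to day 3, 2 were higher (background 3.22%) and 3 lower (55.5%). From day 3 to day 5 limma called 0 in either direction, against 0.67% higher and 13.1% lower. At an unadjusted p under 0.05 in limma, 2 (MALAT1 and NEAT1) were higher and 1 (OIP5-AS1) lower. That looser cut has no threshold on size. The share of all features passing it is not reported here, so these counts have no background to stand beside. The 4 falls thus stand in a table where most features were called lower, while the share called higher was small. On day 5, NORAD differed from the median of all features by -0.049, OIP5-AS1 by -0.34, TUG1 by -0.36 and PVT1 by 0.018. MALAT1 lay 3.51 and NEAT1 2.62 above it. That median was -0.99, and -1.21 where features had to reach 5 TPM, so these distances depend on the filter.

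After rescaling, the rises of MALAT1 and NEAT1 were larger and the 4 falls of days 3 and 5 were no longer called. MALAT1 was higher by 0.94, 3.09 and 3.80 on the 3 days and NEAT1 by 0.81, 2.06 and 2.86, all called by limma. Called higher across all features were 13% on day 2, 24.9% on day 3 and 29.1% on day 5. OIP5-AS1 was still called lower on day 2, at -0.55, where 11.2% of features were called lower. None of the 6 lncRNAs was called lower on day 3, where 22.7% of features were, or on day 5, where 24.6% were. NORAD then stood at 0.22 and PVT1 at 0.16 above untreated cells on day 5, and OIP5-AS1 and TUG1 at -0.068 and -0.14, none of them called.

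**Figure D2:**
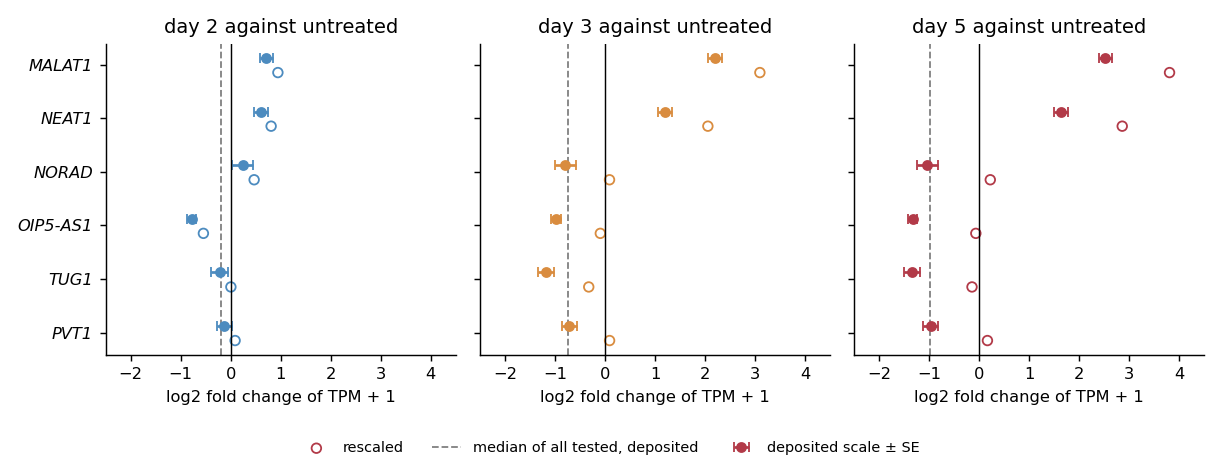
Log2 fold change of TPM plus 1 against untreated cells (horizontal axis) for the 6 lncRNAs tested, on days 2, 3 and 5. Filled points with bars are the deposited scale with its standard error, open points the rescaled values, and the dashed line is the median of all features tested; MALAT1 and NEAT1 lie right of 0 on both scales, while the other 4 lie near the dashed line on day 5 and near 0 once rescaled.

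A ratio of 2 transcripts within a library does not change with the scaling of that library. The ratio of MALAT1 to NORAD was 1.33 ± 0.176 in untreated cells, 1.85 ± 0.140 on day 2, 10.96 ± 2.25 on day 3 and 16.2 ± 2.60 on day 5 (SD, n = 3 each). MALAT1 to OIP5-AS1 went from 1.05 ± 0.113 to 3.06 ± 0.830, 9.71 ± 0.304 and 15.9 ± 3.80, and MALAT1 to TUG1 from 3.58 ± 0.263 in untreated cells to 56.4 ± 2.12 on day 5. NEAT1 to NORAD went from 0.234 ± 0.0321 to 0.305 ± 0.0116, 0.981 ± 0.103 and 1.60 ± 0.362. In these 4 ratios the day 5 libraries did not overlap the untreated ones. NEAT1 was thus below NORAD in all untreated libraries and above it in all day 5 libraries. MALAT1 also grew relative to NEAT1, from 5.74 ± 0.639 in untreated cells and 6.07 ± 0.479 on day 2 to 11.1 ± 1.28 on day 3 and 10.3 ± 0.708 on day 5.

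**Figure D3:**
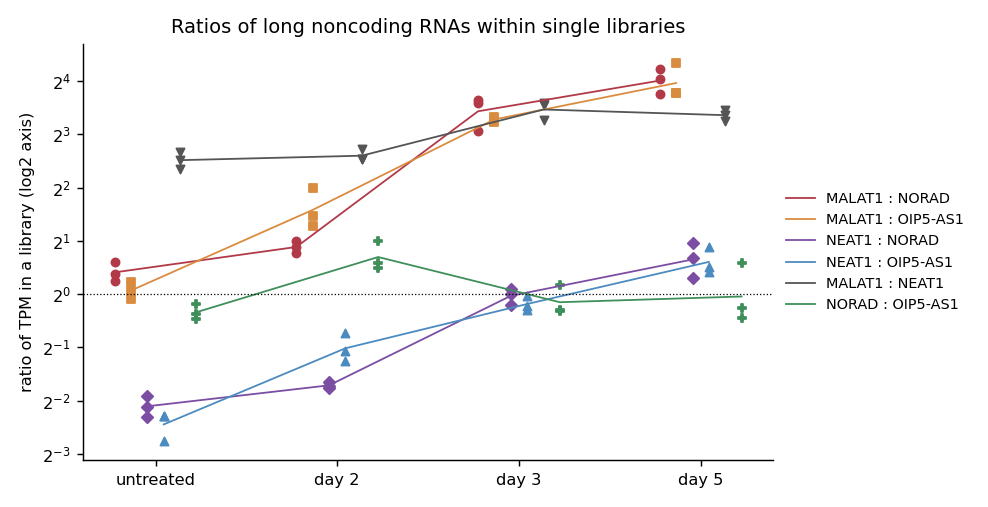
Ratio of TPM between pairs of lncRNAs in single libraries (vertical log2 axis) by day, with a point for each library and lines through the geometric means. Ratios of MALAT1 or NEAT1 to the cytoplasmic NORAD and OIP5-AS1 climb with time and, for NEAT1, cross 1 (dotted), while NORAD to OIP5-AS1 stays between 0.727 and 2.01.

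The mean log2 value of the 3 nuclear lncRNAs minus that of the 2 cytoplasmic ones was -2.70 ± 0.13 in untreated cells, -1.99 ± 0.14 on day 2, -0.68 ± 0.11 on day 3 and -0.13 ± 0.097 on day 5 (SD, n = 3 each). KCNQ1OT1, close to 0, holds this value down. With MALAT1 and NEAT1 alone, a choice made after seeing the data, it was -0.98 ± 0.17, -0.055 ± 0.18, 1.61 ± 0.097 and 2.28 ± 0.068. The values of the 4 days did not overlap under the class as first defined.

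The order of the members by level changed accordingly. In untreated cells MALAT1 and OIP5-AS1 came first with overlapping libraries, then NORAD, TUG1, NEAT1 and PVT1, where NEAT1 and PVT1 overlapped, and KCNQ1OT1 last. On day 5 the order was MALAT1, NEAT1, OIP5-AS1, NORAD, TUG1, PVT1 and KCNQ1OT1, and only OIP5-AS1 and NORAD overlapped as neighbors. Among lncRNA features by mean TPM, MALAT1 went from place 14 in untreated cells to 8 on day 5 and NEAT1 from 51 to 22. NORAD went from 18 to 29, OIP5-AS1 from 15 to 30, TUG1 from 37 to 70 and PVT1 from 67 to 128.

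In TPM, the abundant lncRNAs of these libraries were mostly others. Whether poly(A) selection was used is not given, and MALAT1 and the long NEAT1 transcript lack the usual poly(A) tail. The levels, places and ratios of MALAT1 and NEAT1 beside other lncRNAs may thus depend on how RNA was captured, which was not tested. By mean TPM over the 12 libraries, MALAT1 came 8th, after AC243919.1, GAS5, LINC01480, SNHG5, SNHG6, ZFAS1 and SNHG8, and before CYTOR and AL355512.1. GAS5, SNHG5, SNHG6, SNHG8 and ZFAS1 are hosts of small nucleolar RNAs. GAS5 had a mean TPM of 1180 in untreated cells and 3538 on day 5, and LINC01480 291 and 2658. All lncRNA features together took 0.948% ± 0.0344 of TPM in untreated cells and 1.93% ± 0.0375 on day 5, and MALAT1 took 0.893% ± 0.0983 and 2.56% ± 0.550 of that lncRNA share (SD, n = 3 each). On day 5 that share of MALAT1 was 2.22%, 2.27% and 3.20% in the 3 libraries, the highest again in replicate 3.

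Against other lncRNAs, the rise of MALAT1 was among the largest. On day 5 its log2 fold change was the 4th highest of 705 lncRNA features tested and the 40th highest of all 11939. Higher were AC245297.3 at 3.24, LINC01480 at 3.19 and TIPARP-AS1 at 3.09. NEAT1 came 28th among lncRNAs and 147th overall. Adding 1 to TPM shrinks the fold changes of features at low levels, so these places favor abundant features such as MALAT1. Of the 705 lncRNA features, 23.5% were higher and 31.8% lower on day 5, with a median of -0.14, while of 10465 protein-coding features 5.76% were higher and 74.1% lower, with a median of -1.08. The lncRNA features had lower levels, with a median of their mean TPM of 1.85 against 9.79. Where the mean TPM was at least 10, 43.7% of 71 lncRNAs were higher and 33.8% lower, against 6.32% and 77% of 5160 protein-coding features. NORAD, OIP5-AS1, TUG1 and PVT1 lay nearer to the protein-coding median than to that of the lncRNAs.

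**Figure D4:**
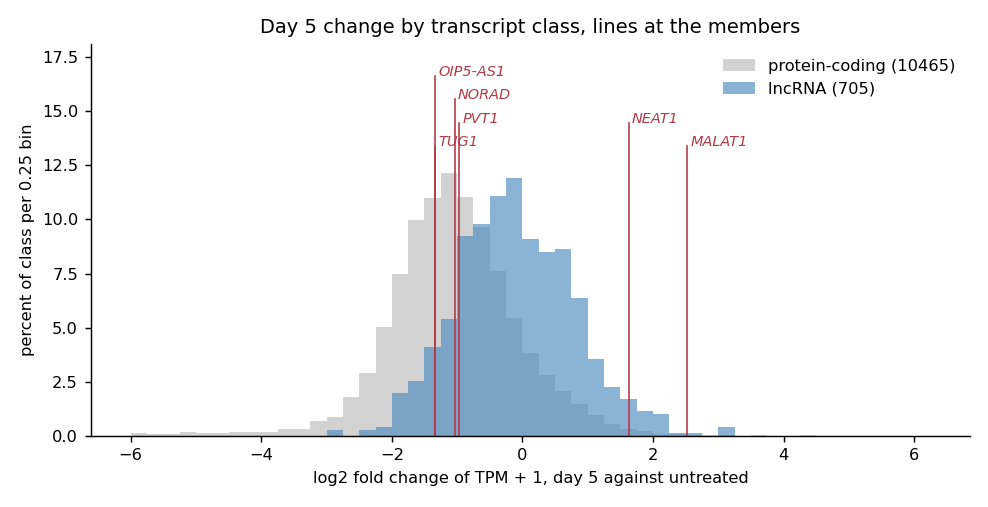
Distribution of log2 fold changes on day 5 (horizontal axis) for 10465 protein-coding and 705 lncRNA features tested, as percent of each class per bin, with values beyond the outer bins drawn in them and lines at the 6 lncRNAs described. MALAT1 and NEAT1 stand in the right tail of both classes and the other 4 near the center of the protein-coding class.

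Other lncRNAs of either compartment were called in both directions. Of 16 other lncRNAs listed as nuclear, 15 were in the table and 7 were tested, of which 2 were higher and 1 lower on day 5, with a median of -0.15. LINC-PINT rose by 1.11 (limma's adjusted p = 5.14e-05) and LINC01578 by 0.84, while DLEU2, a deleted-region transcript of lymphoid tumors, fell by 0.60 (limma's adjusted p = 0.00725) but was called higher after rescaling, at 0.57. Of 20 listed as cytoplasmic, 17 were tested, 7 higher and 6 lower, with a median of 0.16. On day 5, 23.5% of lncRNA features and 7.73% of all features were higher, and 31.8% and 69.8% lower. The cytoplasmic list holds many hosts of small nucleolar RNAs. GAS5, ZFAS1, SNHG5 and SNHG8 were among its 7 higher, and SNHG1, SNHG15 and SNHG16 among its 6 lower. ZFAS1 rose by 2.16 and BCYRN1 fell by 1.92 (limma's adjusted p = 2.06e-11 and 4.25e-08). BCYRN1 has many near-identical copies in the genome and its value is uncertain. After rescaling 6 of the 7 and 13 of the 17 were higher, beside 52.8% of all lncRNA features and 29.1% of all features. In these lists 0 and 1 were lower, beside 7.94% and 24.6%.

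Transcripts of the proteins that work with MALAT1 and NEAT1 mostly fell. Of protein-coding features with a mean of at least 10 TPM, 77% were also lower on day 5, with a median of -1.26. Of 29 paraspeckle proteins, 28 were tested, and 25 were lower and 1 higher on day 5 (89.3% lower, beside 69.8% of all features), with a median log2 fold change of -2.20 beside -0.99 for all features. The core paraspeckle proteins SFPQ, NONO and PSPC1 fell by 2.42, 2.13 and 1.76 (limma's adjusted p = 8.98e-09, 6.39e-09 and 1.32e-08). SFPQ had a mean TPM of 251 in untreated cells and 47.5 on day 5. The largest fall was in RBM14, at -2.86, and the only member higher was ZC3H6, at 0.88. After rescaling 21 were lower (75%, beside 24.6%) and 3 higher (10.7%, beside 29.1%). On day 2, 19 were lower (67.9%, beside 23.2%) and 0 higher.

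Of 21 nuclear speckle proteins, 19 were lower (90.5%, beside 69.8% of all features) and 2 higher on day 5, with a median of -1.62. The scaffold proteins SRRM2 and SON fell by 1.45 and 1.10 (limma's adjusted p = 9.51e-05 and 9.21e-06) and PNN by 2.66. The kinases CLK1 and CLK4, which phosphorylate splicing factors, rose by 1.96 and 0.93 (limma's adjusted p = 3.05e-09 and 5.68e-06). After rescaling 10 were lower and 2 higher (47.6% and 9.52%, beside 24.6% and 29.1%), and neither SRRM2, at -0.21, nor SON, at 0.18, was called. Of 18 proteins of MALAT1 processing and modification, 15 were lower (83.3%, beside 69.8%) and 0 higher, with a median of -1.48. Protein-coding features with a mean of at least 10 TPM were lower in 77%, with a median of -1.26. POP1, a subunit of RNase P, fell by 2.67, while METTL14, a subunit of the m6A methyltransferase, was at -0.13 (adjusted p = 0.576 in limma). Rescaled, 8 were lower (44.4%, beside 24.6%) and 5 higher, METTL14 among the latter at 1.06, and these 27.8% higher are close to the 29.1% of all features.

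Transcripts of RNA decay factors were mostly lower too. So were 77% of protein-coding features with a mean of at least 10 TPM on day 5, with a median of -1.26. Of 21 proteins of the nuclear exosome and its adaptors, 19 were lower (90.5%, beside 69.8% of all features) and 0 higher on day 5, with a median of -1.44, from EXOSC2 at -2.28 to C1D at 0.14. Of 23 proteins of cytoplasmic mRNA decay, 19 were lower (82.6%) and 0 higher, with a median of -1.49, from CNOT1 at -2.37 to LSM1 at -0.17. Rescaled, the nuclear list had 7 lower (33.3%, beside 24.6% of all features) and 3 higher (14.3%, beside 29.1%). The cytoplasmic list had 10 lower (43.5%) and 4 higher (17.4%). C1D and LSM1 were among those called higher. All 8 proteins listed as binding NORAD were lower on day 5, beside 69.8% of all features. Their median was -2.11, beside -0.99 for all features. PUM2 fell by 2.00 (limma's adjusted p = 3.40e-08). On day 2, when NORAD was not called, 6 of the 8 were lower (75%, beside 23.2% of all features), with a median of -0.73. ALYREF, an mRNA export factor, fell by 1.38 on that day (limma's adjusted p = 4.42e-06), while PUM2 stood at -0.40 and was not called. After rescaling 3 of the 8 were lower on day 2 (37.5%, beside 11.2%) and 6 on day 5 (75%, beside 24.6%), PUM2 among the 6.

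**Figure D5:**
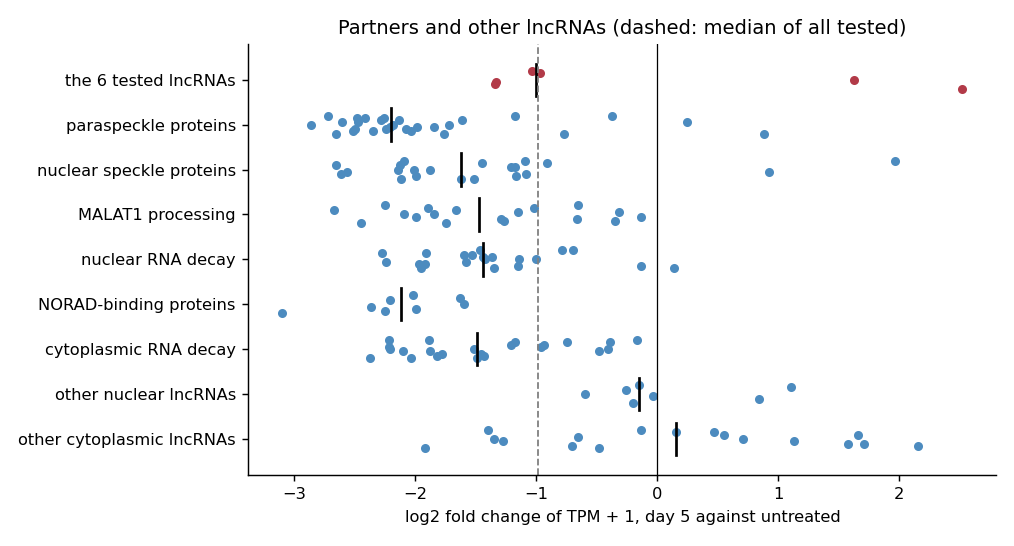
Log2 fold change on day 5 (horizontal axis) of each tested gene in the lists of partners and other lncRNAs, with a point for each gene, a black bar at the list's median and a dashed line at the median of all features tested. Most partner proteins lie left of the dashed line, whereas MALAT1 and NEAT1 (the 2 rightmost red points) lie right of 0.

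Of 13 protein-coding neighbors of MALAT1 and NEAT1, 11 were tested, with 10 lower and 1 higher on day 5, when 69.8% of all features were lower and 7.73% higher. FRMD8 fell by 1.84 (limma's adjusted p = 2.73e-07), POLA2 fell by 3.88 and FAM89B rose by 0.60. Rescaled, 4 of the 11 were lower (36.4%, beside 24.6% of all features) and 1 higher. Of the tested neighbors of NORAD 7 of 11 were lower and 0 higher on day 5, of OIP5-AS1 5 of 5 and 0, of TUG1 4 of 6 and 1 (PIK3IP1, at 1.47), of genes in the KCNQ1OT1 domain 5 of 7 and 0, and of PVT1 5 of 6 and 1 (NSMCE2, at 0.82). Rescaled, in the same order, 3 were lower and 4 higher, 3 and 0, 3 and 3, 1 and 2, and 0 and 1. Beside these, 24.6% of all features were lower and 29.1% higher. OIP5, which overlaps OIP5-AS1 and encodes a protein of the centromere, was called lower on the 3 days, with log2 fold changes of -1.53, -3.10 and -3.50. The ratio of OIP5-AS1 to OIP5 within a library went from 3.21 ± 0.191 in untreated cells to 6.12 ± 2.38, 19.7 ± 2.84 and 23.9 ± 0.995 (SD, n = 3 each). AC087721.2 was lower in level, with a mean of 2.42 TPM in untreated cells and 0.265 on day 5. MORC2, across the shared start region from TUG1, fell by 0.60, 1.60 and 2.04, and CPNE1, a neighbor of NORAD, was at -0.37 on day 5 and not called, and was higher by 0.89 after rescaling.

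MYC, beside PVT1, had a mean TPM of 86.7 in untreated cells, 115 on day 2, 50.4 on day 3 and 41.9 on day 5. Its log2 fold change was 0.41 on day 2 (limma's adjusted p = 0.0964), -0.80 on day 3 (0.00170) and -1.06 on day 5 (1.40e-04), and after rescaling 0.64, called higher, then 0.090 and 0.20, not called. The ratio of PVT1 to MYC within a library was 0.129 ± 0.00559, 0.0882 ± 0.00517, 0.133 ± 0.0294 and 0.128 ± 0.00811 (SD, n = 3 each), lower on day 2 than in any untreated library and overlapping untreated cells on day 5.

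Features whose log2 values ran most like a member's over the 12 libraries were sought where the mean TPM reached 10, as a description, since all points share the days and the scaling of the libraries. For MALAT1 these were SCARNA7, TMBIM4 and ARL14EP, with Pearson's r of 0.990, 0.988 and 0.987. For NEAT1 they were TRIQK, MALAT1 and BBIP1, at 0.982, 0.972 and 0.969. NORAD ran most like ALG2, C6orf62 and ZFP36L2, at 0.989, 0.988 and 0.987, and OIP5-AS1 most like AP000356.5, CYRIB and UBE2T, at 0.989, 0.989 and 0.988. TUG1 ran like YARS1, LIX1L and IARS1, each at 0.997, and PVT1 like MARS1, CNOT11 and CIZ1, at 0.990, 0.990 and 0.988. YARS1, IARS1 and MARS1 are aminoacyl-tRNA synthetases. KCNQ1OT1 had no close match, the highest being PSMA3-AS1 at 0.756.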

How the data were processed

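RNA-seq of 12 libraries was analysed from 1 table in which the authors deposited log2 values of TPM plus 1 for 59276 features. The submitters' processing notes name FastQC, Trimmomatic, STAR, Salmon and hg38, without versions. The annotation release, the strand setting and whether poly(A) selection or ribosomal RNA depletion was used are not given in the sources used here, and TPM keeps no depth. Groups came from the labelled time points.

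The 11939 features reaching 1 TPM in 3 or more libraries were fitted with limma 3.58.1 (R 4.3.3) on the deposited log2 scale, with 1 mean per day over all libraries and a mean-variance trend. Tests were two-sided and adjusted by Benjamini-Hochberg within each contrast. A call needed an adjusted p below 0.05 and a log2 fold change beyond 0.5. For rescaling, 5422 features with a mean of at least 10 TPM and no 0 served to center each library. The fit was tested on simulated data. The lncRNAs and gene lists were chosen with earlier results of these data known. Genes named were the 7 lncRNAs, each list's largest fall and rise at day 5, direct neighbors, core partner proteins, the closest 3 patterns and the 10 most abundant lncRNAs; other genes were named after their values were seen, and some genes under this rule are not reported here. lncRNA and protein-coding classes, loci and transcripts came from GENCODE release 29, whose symbols matched 15122 lncRNA features, since some deposited symbols are newer. Alternatives were no filter, 5 TPM, a pseudocount of 0.1, rescaling, removal of 86 ribosomal protein and 37 mitochondrial features, pairwise fits, no trend, a threshold of 1, other classes of lncRNAs and each library left out. Figures used matplotlib 3.10.9.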

Additional observations from a re-analysis of the deposited data

Results flagged for a closer look

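Levels on day 3 differed from those on day 2 for 5 of the 6 lncRNAs tested, by limma's test of day 3 against day 2. The difference uses no untreated library, but the spread behind its p-value was estimated over all 12 libraries. This contrast cannot tell NGI-1 from time in culture. MALAT1 was higher by 1.49 and NEAT1 by 0.61 on the log2 scale of TPM plus 1, where 3.22% of all features tested were called higher. NORAD stood at -1.03, TUG1 at -0.95 and PVT1 at -0.59, beside a median of -0.57 over all features tested, of which 55.5% were called lower. After rescaling none of the 6 lncRNAs was called lower between these days, where 12.2% of all features were. OIP5-AS1, which was not among the 5, then stood at 0.45.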

How the results depend on the processing

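The rises of MALAT1 and NEAT1 at days 3 and 5 were called under every alternative run, at 2.14 to 3.09 and 2.35 to 3.80 for MALAT1 and at 1.07 to 2.06 and 1.49 to 2.86 for NEAT1. Of the 6 lncRNAs tested, rescaling left 0 lower at day 3, at day 5 and from day 2 to day 3. Of all features, 22.7%, 24.6% and 12.2% were then lower. Rescaling also left 2 higher from day 3 to day 5, beside 4.82% of all features. It turned the sign for TUG1 and PVT1 at day 2 (0.0033 and 0.087), NORAD and PVT1 at day 3 (0.091 and 0.092) and at day 5 (0.22 and 0.16), OIP5-AS1 and PVT1 from day 2 to day 3 (0.45 and 0.0047), and NORAD, OIP5-AS1, TUG1 and PVT1 from day 3 to day 5 (0.13, 0.025, 0.18 and 0.072). Without ribosomal protein and mitochondrial features 2 were lower at day 3 and 2 at day 5, beside 43.5% and 48.2% of all features. From day 3 to day 5, 2 were then higher, beside 2.34%. In this setting the sign turned for PVT1 at day 2 (0.011), OIP5-AS1 from day 2 to day 3 (0.12) and TUG1 from day 3 to day 5 (0.052). A threshold of 1 left 0 lower and 0 higher at day 2, beside 5.19% and 2.19% of all features. It left 1 lower at day 3, beside 36%, and 1 lower and 1 higher from day 2 to day 3, beside 16.6% and 0.385%. With each library left out, 1 to 2 of these lncRNAs were higher at day 2, beside 7.55% to 8.11% of all features. From day 3 to day 5, 0 to 1 were lower and 0 to 1 higher in these fits, beside 7.59% to 25.3% and 0.519% to 0.737%. The nuclear minus cytoplasmic value at days 0, 2, 3 and 5 was -3.67, -3.01, -1.64 and -1.04 with a pseudocount of 0.1. It was -1.66, -1.01, 0.39 and 0.89 with TUG1 and PVT1 as cytoplasmic, and -2.44, -1.98, -1.25 and -0.89 with them as nuclear. It was -0.82, -0.40, 1.68 and 2.30 for MALAT1 and NEAT1 against NORAD alone and, chosen after seeing the data, -0.98, -0.055, 1.61 and 2.28 against NORAD and OIP5-AS1. No paired analysis was possible because the labels carry no replicate numbers that groups share. TPM keeps no counts, so depth sets no stated limit.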
